A study of Homo sapiens with 14 samples.

Results

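The collagen genes are described here in 2 human multiple myeloma (MM) lines, MM.1S and RPMI8226, by the accessible chromatin at their promoters and along their gene bodies. The members were the protein-coding GENCODE genes on chromosomes 1 to 22 whose symbols are COL, a number, A and a number, and 42 of 19111 protein-coding genes on these chromosomes fitted that rule. Of the 42 genes, 11 encode fibrillar collagens and 31 encode other types. MM cells were grown alone (MONO) or beside the human bone marrow stromal line HS5, and cocultured MM cells were either kept behind a transwell membrane above HS5 (TSW) or left adhering to HS5 below it (CO). Accessibility was measured by Omni-ATAC, in which a transposase cuts open chromatin, on sorted cells in 9 MM.1S libraries (3 MONO, 3 TSW and 3 CO) and 5 RPMI8226 libraries (1 MONO, 2 TSW and 2 CO). Each line is a single established culture, and whether libraries came from separate cultures is not given in the sources used here.

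Each line had 1 list of reference peaks, 72802 for MM.1S and 79969 for RPMI8226, and each peak carried a number read here as its support, the number of libraries in which it was found. Support ran from 3 to 9 in MM.1S and from 3 to 5 in RPMI8226. MONO, TSW and CO libraries are pooled in each list without read counts, so the conditions were not compared and the files give no depth. In the library statistics that accompany the study, a MONO library of MM.1S has by far the fewest read pairs, and a peak of support 9 has to be found in that library too. MM cells were sorted as CD38+ and CD90-, a gate that leaves out stromal cells bearing CD90. The study noted a minimal remainder of HS5 among the cells sorted from CO, whose part in the collagen peaks was not tested. A peak of support 3 in MM.1S could come from the 3 CO libraries alone. This held for 33 of the 231 peaks in MM.1S collagen regions (14.3%), beside 7.87% over the regions of all protein-coding genes. Every RPMI8226 peak must have been found in at least 1 library outside CO, because that line had 2 CO libraries.

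Collagens are secreted proteins whose chains wind into a triple helix. Fibrillar collagens form the cable-like fibrils of bone, skin, tendon and cartilage, whereas network-forming types build basement membranes, fibril-associated types (FACITs) decorate fibrils, type VI makes beaded filaments, and transmembrane types sit on the cell surface. In bone marrow the fibrillar chains are made mostly by stromal cells and osteoblasts, and plasma cells are professional secretors of antibody rather than of matrix. All 10 plasma cell marker genes examined, among them SDC1, TNFRSF17 and IRF4, carried a promoter peak in both lines, and the 95% Wilson interval of so short a list (72.2 to 100.0%) held the 77.9% (MM.1S) and 73.0% (RPMI8226) of all protein-coding genes with one. Promoter peaks were also found at 9 of 12 stromal marker genes in MM.1S (75.0%, 46.8 to 91.1) and at 5 in RPMI8226 (41.7%, 19.3 to 68.0). THY1, which encodes the CD90 antigen of stromal cells, LUM and POSTN had none in either line.

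The promoters that separate the patterns described below are shown first, read from RefSeq on the GRCh38.p14 build as 250 bases before to 50 bases after the start site. RefSeq promoters were matched for 30 of the 42 genes by symbol, and all 30 were identical to the hg38 sequence at their coordinates. COL1A1, COL1A2, COL2A1, COL3A1, COL5A2, COL6A1, COL6A5, COL8A1, COL9A3, COL14A1, COL20A1 and COL22A1 had no entry. Capitals mark matches, on either strand, to the GC box GGGCGG, the CCAAT box CCAAT, the TATA box TATAAA and the AP-1 motif TGANTCA, and 0 of the matches in these 6 promoters overlapped another. COL4A3 (chr2:227164374-227164673, plus strand) and COL27A1 (chr9:114155287-114155586, plus strand) carried a peak in all libraries of both lines. COL5A1 (chr9:134641553-134641852, plus strand) carried one in RPMI8226 and not in MM.1S, and COL25A1 (chr4:109302609-109302908, minus strand) the reverse. COL4A1 (chr13:110307108-110307407, minus strand) and COL24A1 (chr1:86156723-86157022, minus strand) carried none in either line.
COL4A3: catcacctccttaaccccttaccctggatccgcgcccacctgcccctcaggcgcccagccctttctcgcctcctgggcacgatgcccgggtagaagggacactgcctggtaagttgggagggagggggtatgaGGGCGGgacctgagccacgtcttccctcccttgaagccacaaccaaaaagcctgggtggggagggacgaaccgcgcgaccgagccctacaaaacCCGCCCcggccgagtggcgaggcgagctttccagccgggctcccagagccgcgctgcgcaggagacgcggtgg
COL27A1: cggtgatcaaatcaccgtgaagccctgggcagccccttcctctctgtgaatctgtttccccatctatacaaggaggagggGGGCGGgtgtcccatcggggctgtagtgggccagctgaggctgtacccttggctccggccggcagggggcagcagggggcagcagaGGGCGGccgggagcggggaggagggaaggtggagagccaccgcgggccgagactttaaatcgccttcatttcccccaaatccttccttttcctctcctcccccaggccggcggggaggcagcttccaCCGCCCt
COL5A1: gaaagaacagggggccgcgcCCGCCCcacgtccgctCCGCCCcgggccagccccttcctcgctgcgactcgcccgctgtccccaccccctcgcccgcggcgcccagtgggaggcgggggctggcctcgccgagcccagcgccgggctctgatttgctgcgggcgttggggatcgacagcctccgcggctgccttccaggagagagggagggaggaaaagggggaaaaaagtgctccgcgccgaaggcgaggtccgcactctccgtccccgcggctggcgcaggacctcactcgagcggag
COL25A1: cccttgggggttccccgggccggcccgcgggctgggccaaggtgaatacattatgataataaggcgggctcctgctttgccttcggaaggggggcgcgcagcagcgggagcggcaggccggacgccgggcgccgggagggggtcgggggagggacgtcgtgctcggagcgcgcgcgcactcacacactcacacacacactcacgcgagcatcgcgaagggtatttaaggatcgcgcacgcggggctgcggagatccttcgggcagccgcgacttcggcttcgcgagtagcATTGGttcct
COL4A1: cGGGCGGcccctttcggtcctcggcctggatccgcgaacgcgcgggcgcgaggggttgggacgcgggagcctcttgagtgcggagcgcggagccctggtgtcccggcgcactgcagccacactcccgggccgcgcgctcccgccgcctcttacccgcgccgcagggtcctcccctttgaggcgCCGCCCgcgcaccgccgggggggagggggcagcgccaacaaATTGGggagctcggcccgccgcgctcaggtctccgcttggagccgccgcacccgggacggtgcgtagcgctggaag
COL24A1: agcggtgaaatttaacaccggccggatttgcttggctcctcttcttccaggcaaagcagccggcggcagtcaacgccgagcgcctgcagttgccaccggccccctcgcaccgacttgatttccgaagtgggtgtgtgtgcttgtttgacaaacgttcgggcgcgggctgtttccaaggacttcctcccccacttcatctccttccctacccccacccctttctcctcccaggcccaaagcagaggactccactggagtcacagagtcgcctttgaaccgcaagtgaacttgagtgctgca
Read against each other, GC boxes were found with and without a peak: COL27A1 held 3, COL4A3 and COL5A1 held 2 and so did COL4A1, which had no peak, while COL25A1, with a peak in MM.1S, and COL24A1, with none, held 0. COL4A1 also held 45 CpG dinucleotides, more than the 24 of COL4A3.

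A promoter peak was any peak within 2500 bp, upstream or downstream, of any of the gene's annotated transcription start sites (TSS). In MM.1S, 27 of 42 collagen genes had one (64.3%, 95% Wilson interval 49.2 to 77.0), beside 77.9% of all protein-coding genes. In RPMI8226, 26 of 42 had one (61.9%, 46.8 to 75.0), beside 73.0%. The collagen share was thus below the background in both lines, and in RPMI8226 the interval reached the background. Most of this gap went when peaks that also lay in the promoter of another gene were left out, with 59.5% of collagen genes beside 60.4% of all in MM.1S and 52.4% beside 55.8% in RPMI8226. The intervals cover counting error only, and the genes are not independent replicates. Against the 7839 protein-coding genes at least as long as the lower quartile of the collagen genes (38.7 kb), which carried a promoter peak in 86.6% and 80.7% of cases, the gap was wider.

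The collagen genes stood further from the background when the peak had to be found in every library of a line. A promoter peak of support 9 was present at 19 collagen genes in MM.1S (45.2%, 31.2 to 60.1), beside 70.2% of all protein-coding genes. In RPMI8226, 18 collagen genes had a promoter peak of support 5 (42.9%, 29.1 to 57.8), beside 67.6%. The 8 MM.1S genes whose promoter peaks fell short of all libraries were COL1A2, COL5A3, COL9A1, COL13A1, COL15A1, COL17A1, COL18A1 and COL23A1, with a highest support between 4 and 8. In RPMI8226 they were COL1A2, COL2A1, COL5A1, COL9A1, COL12A1, COL19A1, COL23A1 and COL28A1, with 3 or 4. COL1A2, COL9A1 and COL23A1 were on both lists.

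**Figure D1:**
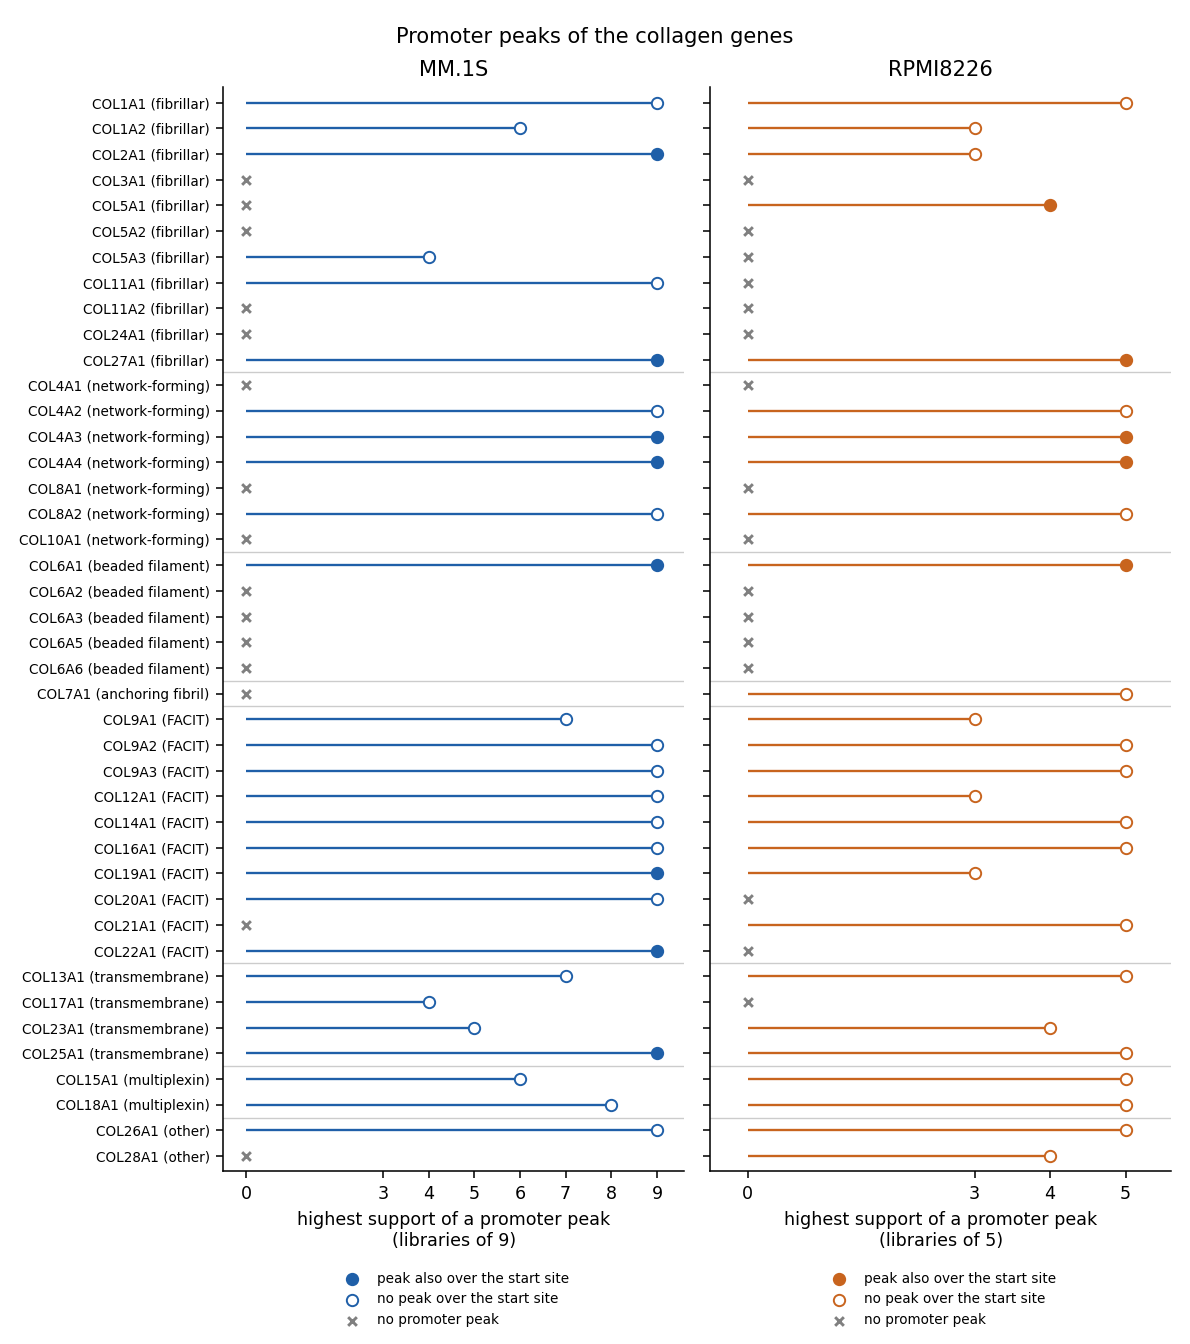
Highest support (number of libraries, horizontal axis) of a promoter peak of each of the 42 collagen genes, ordered by class, in MM.1S (left, 9 libraries) and RPMI8226 (right, 5 libraries). Filled points have a peak over the 300 bases at the canonical start site, open points have a promoter peak elsewhere only, and crosses have none: 8 points are filled in MM.1S and 5 in RPMI8226.

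Of the promoter measures taken, the gap to all protein-coding genes was widest at the start site itself. The canonical start is that of the Ensembl canonical transcript, and the 300 bases from 250 before to 50 after it were examined after the window counts had been seen. A peak lay over these bases at 8 of 42 collagen genes in MM.1S (19.0%, 9.98 to 33.3), beside 64.4% of all protein-coding genes, and at 5 of 42 in RPMI8226 (11.9%, 5.19 to 25.0), beside 56.9%. COL4A3, COL4A4, COL6A1 and COL27A1 had one in both lines. COL2A1, COL19A1, COL22A1 and COL25A1 had one in MM.1S alone, and COL5A1 in RPMI8226 alone. The other 33 collagen genes (78.6%) had no peak over the start in either line, beside 33.6% of all protein-coding genes.

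Many collagen promoter peaks therefore lay off the canonical start or near an alternative one. In MM.1S, 6 of the 27 genes with a promoter peak had it only near a TSS other than the canonical one (22.2%), beside 6.84% of all protein-coding genes with a promoter peak. These genes were COL4A2, COL9A1, COL15A1, COL17A1, COL18A1 and COL23A1. In RPMI8226 this held for 12 of 26 (46.2%), beside 9.06%, namely COL2A1, COL4A2, COL7A1, COL8A2, COL9A1, COL9A3, COL12A1, COL15A1, COL21A1, COL23A1, COL25A1 and COL28A1. Collagen genes had more annotated start sites, a median of 7.5 against 5, and were longer, with a median of 133.5 kb against 27.88 kb. The median distance from the canonical start to the nearest peak was 2476 bp in MM.1S and 10760 bp in RPMI8226, while that of all protein-coding genes was 0 in both lines.

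**Figure D2:**
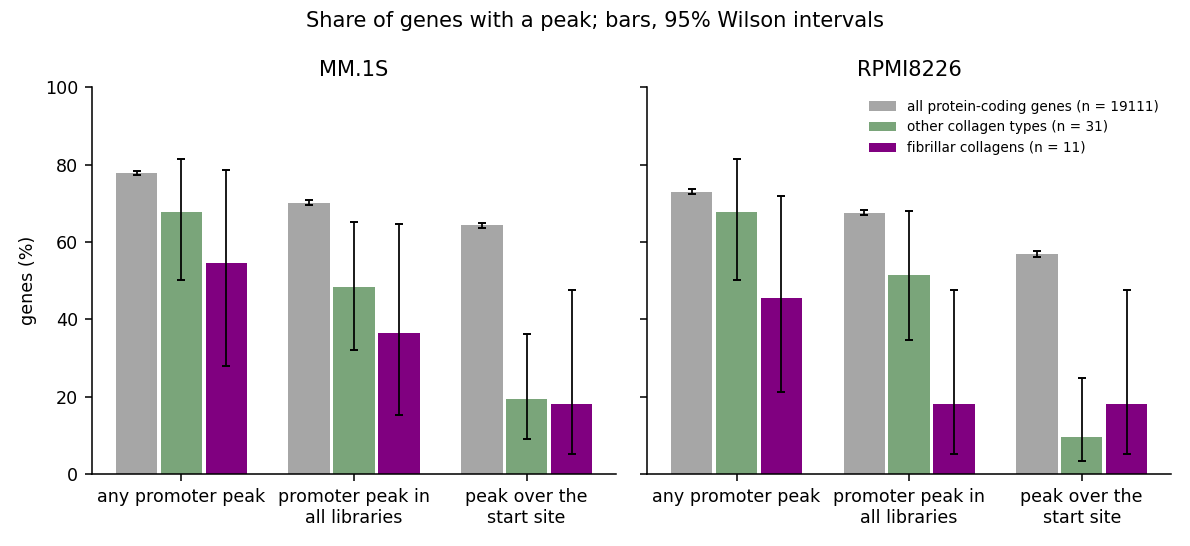
Percentage of genes (vertical axis, from 0) with any promoter peak, with a promoter peak in all libraries, and with a peak over the 300 bases at the canonical start, for all 19111 protein-coding genes (grey), 31 other collagen types (green) and 11 fibrillar collagens (purple) in MM.1S (left) and RPMI8226 (right). Error bars are 95% Wilson intervals, and at the start site both collagen groups lie below all protein-coding genes in each line.

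Set side by side, a smaller share of collagen genes than of all protein-coding genes had a promoter peak in both lines. With a promoter peak in all libraries, this was 13 genes (31.0%, 19.1 to 46.0), beside 63.0%. A promoter peak was present in both lines at 22 genes (52.4%, 37.7 to 66.6), beside 69.8% of all protein-coding genes, and in neither at 11 (26.2%), beside 19.0%. The 11 genes without one were COL3A1, COL5A2, COL11A2, COL24A1, COL4A1, COL8A1, COL10A1, COL6A2, COL6A3, COL6A5 and COL6A6. Of the 22 genes open in both lines, 20 had a promoter peak in the one line that overlapped one in the other (90.9%, 72.2 to 97.5), beside 97.7% of all protein-coding genes open in both. The exceptions were COL9A1 and COL19A1, FACIT genes whose promoter peaks lay at different places in the 2 lines.

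A promoter peak in MM.1S alone was found at 5 collagen genes (11.9%), beside 8.09% of all protein-coding genes. COL11A1 and COL22A1 had support 9 there, COL20A1 also had 9, and COL5A3 and COL17A1 had 4. A promoter peak in RPMI8226 alone was found at 4 genes (9.52%), beside 3.18%: COL7A1 and COL21A1 at support 5, and COL5A1 and COL28A1 at support 4. Both counts are small, and their intervals (5.19 to 25.0 and 3.77 to 22.1%) held the background in the first case and not in the second. Counted within 2500 bp of the canonical start, the RPMI8226 genes were 2 (4.76%, 1.32 to 15.8), beside 3.17%, and that interval held the background. The MM.1S genes were then 9 (21.4%, 11.7 to 35.9), beside 9.36%. Of the 4 RPMI8226 genes, COL5A1 was the only one with its peak over the 300 bases at the canonical start. The COL7A1 peak also lay in the promoter of another protein-coding gene.

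Among the classes, a promoter peak was found at 6 of 11 fibrillar genes in MM.1S (54.5%, 28.0 to 78.7) and 5 of 11 in RPMI8226 (45.5%, 21.3 to 72.0), and at 21 of 31 genes of other types in each line (67.7%, 50.1 to 81.4). The intervals of the classes overlapped, so these counts do not tell the classes apart. With a peak in all libraries the fibrillar count was 4 of 11 in MM.1S (36.4%, 15.2 to 64.6) and 2 of 11 in RPMI8226 (18.2%, 5.14 to 47.7, at COL1A1 and COL27A1), and that of the other types 15 of 31 (48.4%, 32.0 to 65.2) and 16 of 31 (51.6%, 34.8 to 68.0). Against 70.2% and 67.6% of all protein-coding genes, all 4 shares were lower, and the interval of the other types in RPMI8226 alone held the background.

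Type I collagen, the main protein of bone and tendon fibrils, is a trimer of the chains of COL1A1 and COL1A2. COL1A1 (chr17, 17.53 kb, minus strand) had a peak with its midpoint 1269 bp downstream of the canonical start at support 9 in MM.1S, and the corresponding peak at 1189 bp had support 5 in RPMI8226. This peak overlapped between the lines and lay inside the gene, off the 300 bases at the start. RPMI8226 had a second promoter peak 3145 bp downstream of the canonical start at support 4, next to another annotated start. COL1A2 (chr7, 36.33 kb) had an overlapping pair at 633 bp (support 6) and 630 bp (support 3). COL1A1 thus reached every library of both lines, and COL1A2 reached neither maximum. COL1A1 was also the shortest fibrillar gene and had the densest peaks of that class, 7 in MM.1S (12.2 per 100 kb of gene plus 20 kb flanks) and 9 in RPMI8226 (15.6 per 100 kb).

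Type III collagen, which accompanies type I in skin and vessels, had no peak at its gene. COL3A1 (chr2:188974373-189012746) had 0 peaks in the gene and the 20 kb on either side in MM.1S and in RPMI8226, and 4.72% of all protein-coding genes had none in either line. Its start lay in a peak-free stretch of 486.6 kb in MM.1S and 222.9 kb in RPMI8226. The nearest peak was 120070 bp away in MM.1S and 54206 bp in RPMI8226. COL5A2, which encodes a type V chain and lies next to COL3A1, had no promoter peak but held 2 peaks in each line. One of these, 36508 bp downstream of the canonical start, had support 9 in MM.1S and overlapped a peak of support 5 in RPMI8226.

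Type V collagen sets the width of type I fibrils. In RPMI8226, COL5A1 had a peak over the 300 bases at its start (midpoint 151 bp upstream, support 4), together with 14 other peaks in its region. That peak did not reach the start itself, from which the nearest RPMI8226 peak was 50 bp away. MM.1S held 11 peaks in the COL5A1 region and none at the start, the nearest peak being 3421 bp away. Only 4 of these 11 MM.1S peaks overlapped an RPMI8226 peak, so that both lines had many COL5A1 peaks at mostly different places. None of the 11 reached support 9, whereas 4 of the 15 RPMI8226 peaks reached support 5. COL5A3 had a promoter peak of support 4 in MM.1S, 1025 bp downstream of the start, and none in RPMI8226, where its 3 region peaks all had support 5.

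COL2A1, the cartilage collagen gene, had 4 promoter peaks in MM.1S. They lay 528, 2625, 13830 and 22019 bp downstream of the canonical start with support 7, 8, 9 and 9, the later ones near internal starts. In RPMI8226 the promoter peaks lay at 3327 and 21965 bp, each with support 3, and the second of them was the one shared with MM.1S. The support was therefore at or near the maximum in MM.1S and at the minimum of the list in RPMI8226. COL11A1 and COL11A2 encode type XI chains, minor partners of type II collagen in cartilage. COL11A1 had a single peak in MM.1S, 1611 bp downstream of the start with support 9, and 0 in RPMI8226, where the peak-free stretch around its start spanned 626.5 kb. COL11A2 had 8 peaks in its region in each line and none at its promoter. Of these, 4 in MM.1S and 5 in RPMI8226 lay in promoters of other genes. COL11A2 is a short gene, and 6 of its 8 MM.1S peaks overlapped one of the RPMI8226 list.

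COL27A1, a minor fibrillar gene, was the one fibrillar gene open over its start in both lines. Its peak lay 68 bp upstream of the canonical start at support 9 in MM.1S and 17 bp upstream at support 5 in RPMI8226. It had 8 region peaks in MM.1S and 4 in RPMI8226, and 3 of the MM.1S peaks were shared. COL24A1, the longest fibrillar gene (427.7 kb), had no promoter peak and 5 and 7 scattered region peaks.

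**Figure D3:**
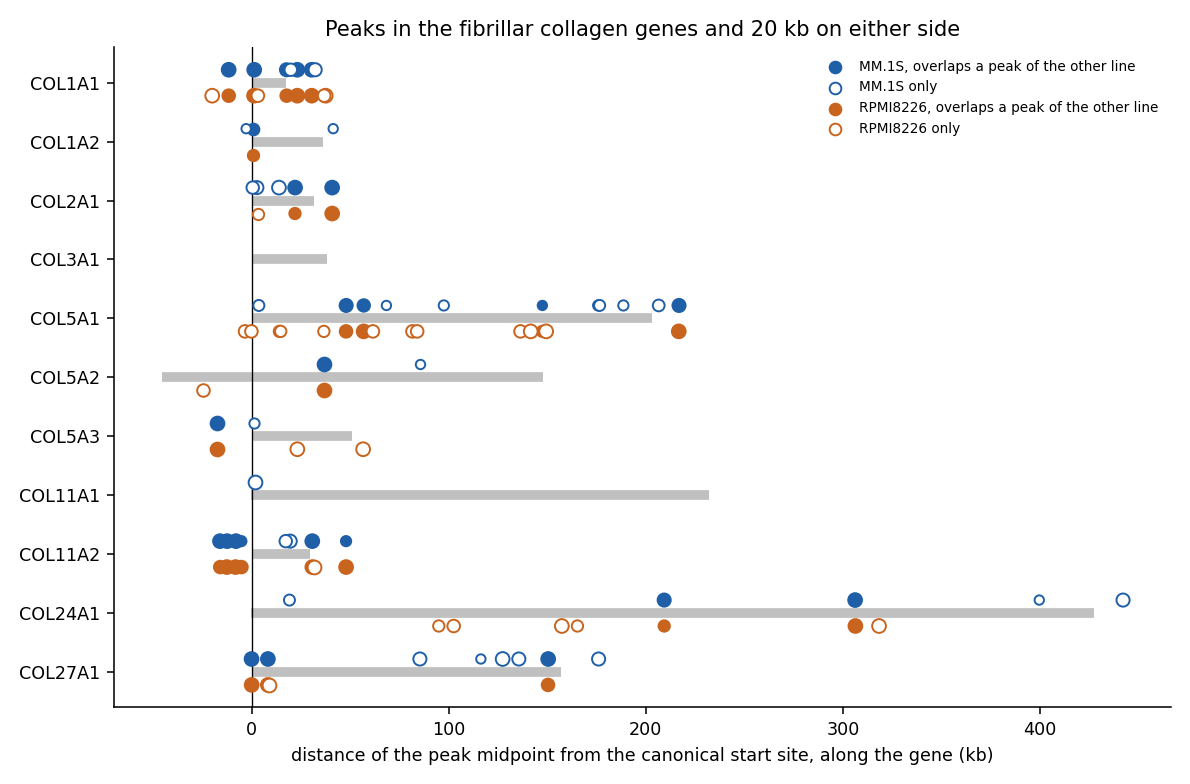
Midpoints of peaks (points; size grows with support) in the 11 fibrillar genes and 20 kb on either side, as distance in kb from the canonical start site along the gene (grey bars, gene bodies), with MM.1S above and RPMI8226 below each bar. Filled points overlap a peak of the other line; COL3A1 has no point and COL11A1 a single MM.1S point.

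Basement membrane collagen IV is encoded by pairs of genes that share a promoter region head to head. COL4A3 and COL4A4, whose chains join in the kidney glomerulus, start 419 bp apart, and a peak covered the start of each gene in all 9 MM.1S and all 5 RPMI8226 libraries. The starts of COL4A1 and COL4A2, which encode the widespread chains, are 127 bp apart and lay without a peak in 165.0 kb (MM.1S) and 103.8 kb (RPMI8226). COL4A2 was nonetheless counted as open, because it had a promoter peak near an internal start 200664 bp downstream at support 9 in MM.1S and one at 202992 bp at support 5 in RPMI8226. COL4A1 and COL4A2 held 3 and 9 region peaks in MM.1S and 5 and 9 in RPMI8226, all 3 COL4A1 peaks of MM.1S being shared. The 2 pairs were alike in arrangement, and a peak at the start was listed for COL4A3 and COL4A4 alone.

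Of the remaining network-forming genes, COL8A2 had a promoter peak in all libraries of both lines. COL8A1, which encodes its partner chain in vessel and corneal membranes, had none and still held 6 region peaks in each line, 4 of them shared. COL10A1, a gene of hypertrophic cartilage, had 1 region peak in each line, 25128 bp downstream of the start in MM.1S and at 25139 bp in RPMI8226, found in all libraries of both. In each line this peak lay past the end of COL10A1 in the promoter of another gene, NT5DC1 in MM.1S.

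Among classes of at least 5 genes, the beaded filament genes had the lowest share of promoters with a peak, 1 of 5 in each line (20.0%, 3.62 to 62.4). COL6A1 was that gene, with peaks centred 365 bp upstream (support 9) and 128 bp downstream (support 7) of the start in MM.1S and 419 bp upstream (support 5) and 90 bp downstream (support 3) in RPMI8226. COL6A2, which lies further along chromosome 21 and encodes the partner chain, had none: its nearest peak was 3791 bp away in MM.1S and 19200 bp in RPMI8226. COL6A3 had 2 peaks in MM.1S and 1 in RPMI8226, all upstream. COL6A5 and its neighbour COL6A6 had no promoter peak, and COL6A5 had 0 region peaks in MM.1S and 2 in RPMI8226. COL6A6 had 2 in each line, both shared.

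A promoter peak was found at 9 of 10 FACIT genes in MM.1S (90.0%, 59.6 to 98.2) and 8 of 10 in RPMI8226 (80.0%, 49.0 to 94.3). Both intervals held the share of all protein-coding genes (77.9% and 73.0%). FACIT genes had a median of 11.5 annotated start sites, against 5. Over the 300 bases at the canonical start, 2 of 10 had a peak in MM.1S (20.0%), beside 64.4%, and 0 of 10 in RPMI8226, beside 56.9%. The promoter peaks of COL9A2, COL9A3, COL14A1 and COL16A1 were at the maximum support in both lines. COL19A1 had a peak of support 9 in MM.1S centred 555 bp downstream of the start and reaching over it. RPMI8226 had a different one, 1206 bp upstream with support 3. COL22A1 had a peak 272 bp upstream at support 9 in MM.1S and none at its promoter in RPMI8226, yet 6 of its 12 MM.1S region peaks recurred in RPMI8226. COL12A1 had a promoter peak in both lines, at support 9 in MM.1S and 3 in RPMI8226, but these lay at different places. The MM.1S peak, centred 2923 bp upstream of the canonical start, overlapped an RPMI8226 peak of support 5 centred 2965 bp upstream. That RPMI8226 peak fell outside the promoter window and was not counted. COL20A1 had 3 promoter peaks in MM.1S, up to support 9, and 1 region peak in RPMI8226.

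All 4 transmembrane genes (COL13A1, COL17A1, COL23A1, COL25A1) had a promoter peak in MM.1S and 3 in RPMI8226, the exception being COL17A1, an adhesion protein of epithelial hemidesmosomes. Only the COL25A1 peak covered the canonical start, 107 bp upstream in all 9 MM.1S libraries. COL25A1 also had a peak near an internal start, at 471959 bp in MM.1S (support 9) and 471937 bp in RPMI8226 (support 5). The multiplexin genes COL15A1 and COL18A1, basement membrane proteoglycans whose ends release endostatin-like fragments, both had promoter peaks in both lines. COL7A1, of the anchoring fibrils of skin, had its RPMI8226 promoter peak 29221 bp downstream of the canonical start near another TSS. That peak also lay in the promoter of another protein-coding gene. Of the last genes, COL26A1 had a peak 1130 and 1145 bp downstream of its start in all libraries of both lines, and COL28A1 had one in RPMI8226 only, at an internal start with support 4.

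Along the whole region, defined as the gene body plus 20 kb on either side, collagen genes held a median of 5 peaks in each line, against 4 for all protein-coding genes. Per 100 kb of that region the median was 3.04 in MM.1S (quartiles 1.37 and 5.97) and 2.92 in RPMI8226 (1.36 and 4.54), against 4.52 and 4.55. Protein-coding genes of at least 38.7 kb had 3.21 and 3.37, close to the collagen values. With peaks in all libraries the collagen medians were 1.05 and 1.35, further below those of the long genes (1.85 and 2.26) and of all protein-coding genes (2.47 and 3.15). Outside promoters they were 1.52 and 1.58, beside 1.67 and 1.78 for long genes and 1.84 and 1.83 for all. In MM.1S the most peaks lay at COL18A1 (16), COL26A1 (13), COL22A1 (12), COL5A1 (11) and COL25A1 (11). In RPMI8226 they lay at COL5A1 (15), COL21A1 (15), COL23A1 (12), COL19A1 (11) and COL26A1 (11). The lines were far apart at some genes: COL21A1 had 5 peaks in MM.1S and 15 in RPMI8226, COL19A1 had 3 and 11, and COL18A1 had 16 and 9. Across the 42 genes, 15 had more peaks in MM.1S, 17 had more in RPMI8226 and 10 had the same number. The same split was not counted over all protein-coding genes, so these counts have no background beside them.

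**Figure D4:**
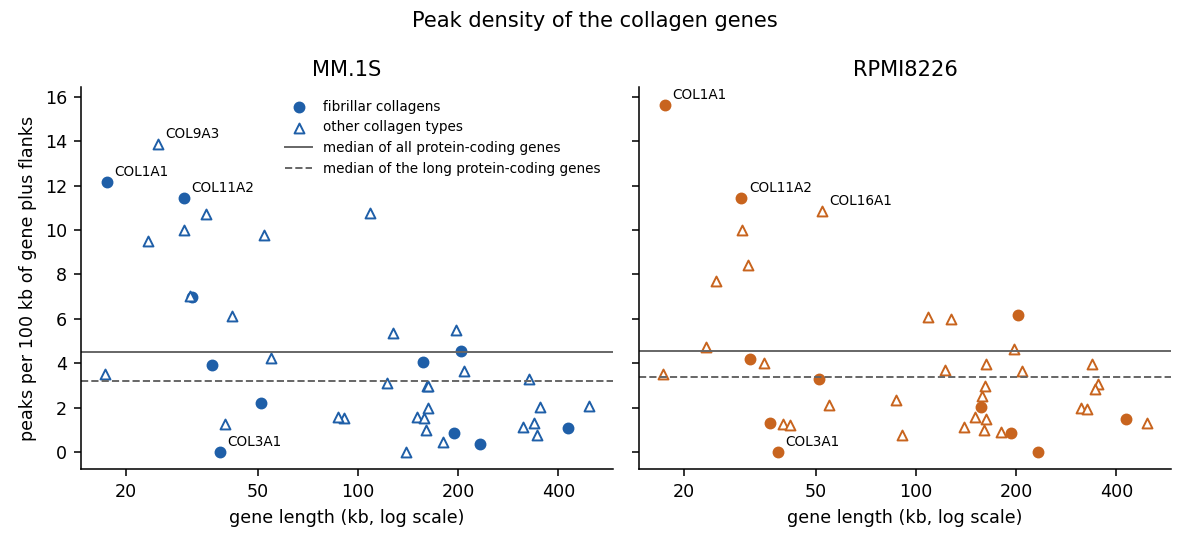
Peaks per 100 kb of gene plus 20 kb flanks (vertical axis) against gene length in kb (log scale) for the 42 collagen genes in MM.1S (left) and RPMI8226 (right), with fibrillar genes filled. The solid line is the median of all protein-coding genes (4.52 and 4.55) and the dashed line that of the long ones (3.21 and 3.37); the short genes COL1A1 and COL11A2 lie above both lines and COL3A1 lies at 0.

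In collagen regions, the shares of peaks found in all libraries and shared between the lines were below those of all protein-coding regions. In MM.1S, 123 of 231 overlapped an RPMI8226 peak by at least 1 bp (53.2%, 46.8 to 59.6), against 66.3% of all. In RPMI8226, 126 of 228 overlapped an MM.1S peak (55.3%, 48.8 to 61.6), against 66.5%. Support 9 was reached by 86 of the 231 MM.1S peaks (37.2%, 31.3 to 43.6), against 55.4%, and support 5 by 124 of the 228 RPMI8226 peaks (54.4%, 47.9 to 60.7), against 66.5%. At the other end, 33 MM.1S peaks had support 3 (14.3%), against 7.87% of all, and 44 RPMI8226 peaks did (19.3%), against 14.3%. Among peaks in all libraries the share that overlapped the other line was 79.1% in MM.1S (69.3 to 86.3), against 82.3% of all, and 66.1% in RPMI8226 (57.4 to 73.9), against 78.0%, so the MM.1S interval then held the background and the RPMI8226 interval did not. Fibrillar regions shared 25 of 52 MM.1S peaks (48.1%) and 26 of 52 RPMI8226 peaks (50.0%), and the other types 98 of 179 (54.7%) and 100 of 176 (56.8%), with overlapping intervals. Counted once for each gene whose region held them, 134 of 232 MM.1S peaks (57.8%) and 145 of 231 RPMI8226 peaks (62.8%) lay in introns, against 37.2% and 38.6% over all protein-coding genes. The flanks are a fixed 20 kb, so introns can fill more of the region of a long gene. Collagen genes had a median length of 133.5 kb against 27.88 kb, and the share over long genes alone was not taken. Peaks of support 3 in MM.1S, the ones that could come from CO alone, made up 6 of the 59 promoter peaks of collagen genes. Of the 89 collagen-region peaks in promoters of any protein-coding gene, 8 had support 3 (8.99%), beside 4.54% of all such MM.1S peaks. Without the peaks of support 3 the same number of collagen genes, 27, kept a promoter peak.

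A majority of collagen promoters without a peak over the start in either line, 15 of 24 with a RefSeq entry, were rich in CpG (a ratio of at least 0.6). CpG observed over expected, a ratio that is near 1 where CpG dinucleotides have not been depleted, had a median of 0.706 over the 30 collagen promoters and 0.772 over 14611 protein-coding promoters. Over promoters without a peak in either line, the median was 0.706 for the 24 of collagen genes and 0.314 for all. With that cut at 0.6, chosen after the values were seen, 19 of the 30 collagen promoters were CpG-rich (63.3%), against 67.1%. A peak lay over the 300 bases of 3 of these 19 in each line (15.8%, 5.52 to 37.6). Of all CpG-rich promoters, 85.2% carried one in MM.1S and 76.1% in RPMI8226. Among CpG-poor promoters the collagen share was 2 of 11 in MM.1S (18.2%, 5.14 to 47.7) and 1 of 11 in RPMI8226 (9.09%, 1.62 to 37.7), against 23.0% and 20.4%. The distance from the background was thus seen at CpG-rich collagen promoters, of which COL15A1 (1.08), COL4A1 (1.02), COL12A1 (1.01) and COL4A2 (1.00) had the highest ratios without a peak over the start in either line. COL25A1, at 1.10, had the highest ratio of all and carried one in MM.1S alone. COL2A1, COL6A1 and COL22A1, which had a peak over the canonical start, have no RefSeq entry and are missing from these counts. The RefSeq starts of COL10A1 and COL9A1 lay 91012 and 19887 bp from the canonical start. The 300 bases of COL4A1 and COL4A2 overlap each other, as do those of COL4A3 and COL4A4, yet each gene was counted as a separate promoter.

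**Figure D5:**
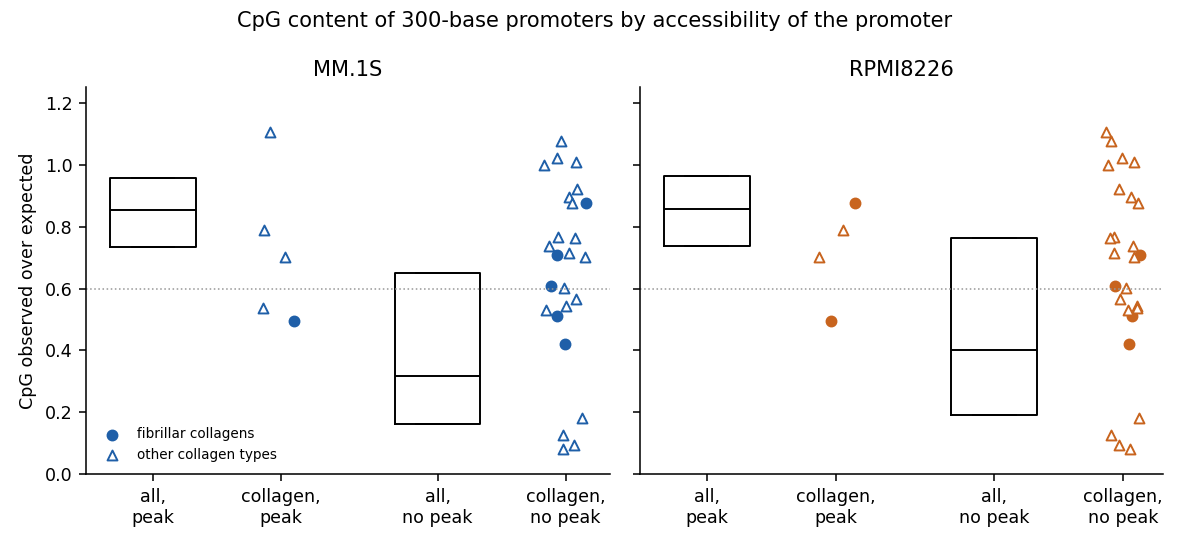
CpG observed over expected (vertical axis) of the 300-base promoters with and without a peak over them, in MM.1S (left) and RPMI8226 (right). Boxes give the quartiles and median of 14611 protein-coding promoters, points are the 30 collagen promoters (horizontal scatter only separates points) and the dotted line is at 0.6; the collagen promoters without a peak sit higher, with medians of 0.708 and 0.706, than all promoters without one, at 0.316 and 0.402.

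Of the promoter motifs shown in capitals above, the GC box was as common as elsewhere. A GC box was present in 18 of 30 collagen promoters (60.0%), against 59.6% of all. CCAAT was present in 8 (26.7%), against 36.3%, and TATAAA in 5 (16.7%), against 9.72%. TGANTCA was present in 0 of 30, against 5.69%. These are matches of letters in a window and not sites of binding.

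Away from promoters, AP-1 motifs were common in RPMI8226 peaks. The motif TGANTCA, with any base at N, reads the same on both strands. It was searched in the central 200 bp of region peaks outside every protein-coding promoter. In RPMI8226, 38 of 156 such peaks held it (24.4%, 18.3 to 31.7), against 20.8% of all peaks outside promoters, and in MM.1S 18 of 142 (12.7%, 8.17 to 19.1), against 12.1%. Both intervals held the share of all peaks of their line. Among peaks of 1 line only, 24 of 80 in RPMI8226 (30.0%, 21.1 to 40.8) and 4 of 67 in MM.1S (5.97%, 2.35 to 14.4) held the motif, against 26.3% and 8.31%. COL21A1 had the most peaks with the motif, 6 of its 14 RPMI8226 peaks outside promoters. It also had the most such RPMI8226 peaks, with or without the motif, of the collagen genes. The bases around the match are shown on the plus strand of hg38 for these 6 peaks, for the COL4A1 and COL4A2 peak of support 5 found 19261 bp upstream of COL4A1 in RPMI8226 alone, and for a COL1A1 region peak found in all libraries of both lines, with the motif in capitals. That COL1A1 peak lay past the downstream end of the gene, outside promoters, and is not the COL1A1 promoter peak described above.
COL21A1 (chr6:56040449-56040495): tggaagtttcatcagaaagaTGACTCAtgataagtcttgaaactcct
COL21A1 (chr6:56073059-56073105): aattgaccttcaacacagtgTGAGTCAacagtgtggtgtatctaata
COL21A1 (chr6:56101235-56101281): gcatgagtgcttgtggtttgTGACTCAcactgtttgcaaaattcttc
COL21A1 (chr6:56279803-56279849): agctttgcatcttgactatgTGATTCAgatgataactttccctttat
COL21A1 (chr6:56359443-56359489): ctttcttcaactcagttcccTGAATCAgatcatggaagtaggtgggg
COL21A1 (chr6:56400409-56400455): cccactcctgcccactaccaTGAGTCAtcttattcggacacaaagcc
COL4A1 and COL4A2 (chr13:110326428-110326474): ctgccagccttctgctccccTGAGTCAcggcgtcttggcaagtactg
COL1A1 (chr17:50178533-50178579): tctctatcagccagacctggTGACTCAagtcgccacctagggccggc
The first 3 of the COL21A1 peaks had support 5 and no counterpart in MM.1S. Of the 6, the fifth (support 3) was the one that overlapped an MM.1S peak, and that MM.1S peak had support 3. The fourth match reads TGATTCA and the fifth TGAATCA, and matches were not counted apart by their middle base.

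Genes that make, trim and bind collagen had promoter peaks at higher shares than the collagen genes in MM.1S, and in RPMI8226 this held for biosynthesis alone; the background is the same 77.9% and 73.0% of all protein-coding genes. All 19 genes of collagen biosynthesis had a promoter peak in MM.1S (83.2 to 100.0%), all of them in every library, and 16 had one in RPMI8226. They include the prolyl hydroxylase subunit genes P4HA1 and P4HB and SERPINH1, the collagen chaperone, many of which serve other secreted proteins too. P4HA3, PLOD2 and COLGALT2, which modify proline or lysine residues of collagen, had one in MM.1S and none in RPMI8226. Of 13 genes of maturation, 12 had one in MM.1S (92.3%, 66.7 to 98.6) and 7 in RPMI8226 (53.8%, 29.1 to 76.8). ADAMTS2, the procollagen N-proteinase, had none in either line, and ADAMTS14, TLL1, LOX, LOXL2 and LOXL4 had one in MM.1S alone.

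Promoter peaks lay at 9 of 10 receptor genes in MM.1S (90.0%, 59.6 to 98.2) and at 5 in RPMI8226 (50.0%, 23.7 to 76.3). ITGB1, which encodes the common beta chain of the collagen-binding integrins, ITGA1, ITGA11, DDR1 and LAIR1 had one in both lines. ITGA2, ITGA10, DDR2 and MRC2 had one in MM.1S alone, and GP6, a platelet receptor, had none. Of 6 genes of degradation, MMP1 had a promoter peak in both lines (support 6 and 3), MMP8 and MMP13 in RPMI8226 alone (support 4 and 5), and MMP2, MMP14 and CTSK in neither. The lists are short, and their intervals are wide: in MM.1S those of maturation and receptors held the background and overlapped that of the collagen genes (49.2 to 77.0), and in RPMI8226 so did that of biosynthesis (62.4 to 94.5, beside 46.8 to 75.0).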

How the data were processed

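Omni-ATAC libraries of sorted MM cells were assigned to lines and conditions by their titles. The authors, as their methods state, aligned reads to hg38 with Bowtie2, dropped multiply mapped and duplicate reads, called peaks with MACS3 and kept a peak found in at least 3 samples of a line; tool versions, thresholds and how boundaries were joined are not given in the sources used here. The deposited files hold, without a header, each reference peak's position and a whole number, read here as support (the number of libraries with the peak) because it runs from 3 to the number of libraries. Positions were read as BED. The files give no depth.

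Genes and start sites came from GENCODE release 44 (the study used another annotation), sequences from RefSeq. Scripts in Python 3.11.15 with pandas 2.3.3 counted peaks overlapping the 2500 bp on either side of any TSS and the gene body plus 20 kb by at least 1 bp. Interval code was tested on simulated data. No test was run: each line has 1 pooled list, so differential accessibility was not analysed here. Shares carry 95% Wilson intervals. Members and lists were chosen with earlier results of these data known. Named in depth were the fibrillar genes, genes whose promoter state differed between lines, the 5 genes with most region peaks in each line, neighbouring pairs, and list genes without a promoter peak. The canonical start, the 300-base view, the CpG cut of 0.6 and the count without MM.1S peaks of support 3 were added after the data were seen. Other windows, start sites, flanks, overlaps and thresholds were tried as alternatives.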

Additional observations from a re-analysis of the deposited data

How the results depend on the processing

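No paired analysis was possible because the lists pool the libraries and no result comes from a test; for the same reason no library could be left out. The count of genes with a promoter peak fell from 26 in RPMI8226 to 17 with the starts of protein-coding transcripts, 13 with the 5′ end of the gene and 14 with the canonical start, and the gap to all protein-coding genes went from -11.1 to -29.8, -33.8 and -33.0 percentage points, and to -3.42 with peaks in no other gene's promoter. In MM.1S that gap was -13.6 and ranged from -25.0 (peaks in all libraries) to -0.876 (peaks in no other gene's promoter). Genes open in MM.1S alone went from 5 to 10 with 1000 bp windows and 9 with the canonical start. Genes open in RPMI8226 alone went from 4 to 2 with 5000 bp windows and 2 with the canonical start. With peaks in all libraries the median per 100 kb was 1.05 (MM.1S) and 1.35 (RPMI8226), and outside promoters 1.52 and 1.58, against 3.04 and 2.92 as reported; all protein-coding genes went from 4.52 and 4.55 to 2.47 and 3.15, and to 1.84 and 1.83. Sharing was 43.3% and 43.4% with 50% reciprocal overlap, 79.1% and 66.1% with peaks in all libraries, and 48.7% for RPMI8226 outside promoters, against 53.2% and 55.3%. The difference in median CpG ratio between MM.1S collagen promoters with and without a promoter peak was 0.129, and -0.00754 when the peak had to cover the 300 bases; in RPMI8226 it was 0.191 (interval 0.00806 to 0.339, from the promoters with a peak) and 0.0395. The cause of these shifts was not tested. In all, 45 alternative values, among them the -25.0, -0.876, -3.42 and 0.0395 above, moved a count by at most 1.5 times or stayed within the interval of the reported value, which is wide for the gaps and the CpG ratio. Without read counts, a missing peak does not show closed chromatin.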

Other observations

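The X-linked collagen IV genes fall outside the rule, which stops at chromosome 22. COL4A5 and COL4A6 start 1416 bp apart, head to head. Each had 1 promoter peak, of support 8, in MM.1S, while neither gene had a promoter peak in RPMI8226. The regions held 2 (COL4A5) and 3 (COL4A6) peaks in MM.1S and 1 and 2 in RPMI8226. Within 2500 bp of the canonical start, this pair had a peak in MM.1S only. Whether a peak covered these starts, as was examined for the pairs on the autosomes, was not counted.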
